A study of Mus musculus with 17 samples.

Results

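Effector CD8 T cells, activated by dendritic cells, were compared with naive CD8 T cells. Both came from OT-I mice, which carry a transgenic receptor specific for a peptide of ovalbumin. Illumina bead arrays recorded the transcripts, and the comparison used 10 of the 17 arrays of the study, 5 effector samples (numbered 6, 8, 10, 16 and 17) and 5 naive samples (1, 2, 11, 12 and 13), chosen by what their titles say. All the mice had a C57Bl/6 background and an age of 2 to 6 months, and all samples were given as isolated lymphocytes. The naive cells came from spleen. The source of 4 effector samples was a coculture with splenic dendritic cells, while effector sample 8 was labelled as spleen. No duration of culture, antigen or dose was taken from the labels, so activation and culture outside the animal cannot be told apart in this comparison. The other 7 arrays held 4 samples of OT-I cells primed by liver sinusoidal endothelial cells (LSEC) and 3 samples of OT-I memory cells taken 3 months after an infection with Listeria monocytogenes OVA. They served for the shared estimate of spread and as reference levels. Whether each sample stands for an animal or culture of its own is not said in the labels, so a p-value reflects the spread among these samples alone, which may be technical.

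A naive CD8 T cell circulates through lymphoid tissue in a resting state maintained by transcription factors such as Klf2 and Foxo1 and by interleukin 7. Antigen presented by a dendritic cell, with costimulation and cytokines, makes it grow, divide and take up glucose and amino acids at a high rate. Its progeny carry perforin, granzymes and interferon gamma and can kill cells that show the antigen. Array values are log2 intensities after quantile normalisation, which gives every array the same distribution. A gene's value is therefore its level relative to the other transcripts, and a change in the amount of RNA per cell does not show. In these bulk samples, fewer cells of a type and less RNA per cell cannot be told apart.

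The 10 arrays had a mean intensity of 227 to 471 before normalisation, and 29.1% to 35.3% of their probes lay above the estimated background. Within groups, arrays correlated across all probes at 0.9777 to 0.9894 (effector) and 0.9686 to 0.9887 (naive), against 0.8874 to 0.9207 between the groups. Precision is limited by the number of arrays. The offset of 50 added to each intensity makes the fold changes of dim genes smaller than they were. Where no array of a group was above background, the fold is a lower bound, given as "at least". For Aldoc, Il2ra, Myc, Ccl3, Il12rb2, Slc7a3, Ddit4 and Mt2 in naive samples, and for Hbb-bs, Eomes, Il6ra and Ltf in effector samples, 1 array was above background, so their differences are set largely against background.

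Samples 12, 13, 16 and 17 stood apart from the others in both groups. Over 6790 genes, the first component of the deviations from the group means held 39.7% of their variance and placed these 4 arrays at 11.9 to 16.6 and the other 6 at -16.6 to -1.7. No label names a batch, and the sets were recognised from the data. Each set held effector and naive samples. With the same probes, 4276 genes were called within samples 1 to 11, with 3 arrays a group, and 4511 within samples 12 to 17, with 2 a group. With the set as a block, 4687 genes were called. Naive sample 13 and effector sample 17 also differed from the rest in lacking Xist, the X inactivation transcript, and in carrying Y-linked signal, and 3901 genes were called without the arrays that carried it.

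Of 16462 named genes tested, 4368 (26.5%) differed between effector and naive cells at an adjusted p under 0.05, 2338 higher and 2030 lower in effector cells. At least 2-fold changes were found for 1534 of them (9.32% of genes), 870 higher and 664 lower, and at least 8-fold changes for 103, 80 higher and 23 lower. The 5 effector and 5 naive values did not overlap for 4080 genes (24.8%). The median difference over all genes was -0.004. Of the called genes, 53.5% were higher in effector cells. When arrays were only scaled to share their median, 2506 genes were called and 76.3% of them were higher. So many genes were called that a count of members in a list is read below against the share of all genes. That share was 26.5%, with 14.2% higher and 12.3% lower, and it includes many dim genes. With only probes above the 75th percentile of their array on at least 5 arrays, 4227 of 7544 genes were called. A list of mostly bright genes can therefore exceed 26.5% without standing out from other bright genes.

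Among the genes that rose most in effector cells, Mt1, a metallothionein that binds zinc and copper, read 7.50, 7.35, 7.97, 6.68 and 6.88 on the naive arrays and 14.41, 14.21, 14.53, 14.41 and 14.58 on the effector arrays, a rise of 7.15 on the log2 scale (SE 0.48, adjusted p = 7.76e-09). The naive and effector ranges lay far apart. Mgarp, a mitochondrial protein, was above background on none of the naive arrays and read 11.72, 11.35, 11.52, 11.40 and 11.48 on the effector arrays, at least 36.9-fold higher (adjusted p = 2.56e-10). Aldoc, the aldolase C of glycolysis, rose by 5.39 (SE 0.19), from 6.40, 6.00, 6.13, 6.11 and 6.21 to 11.68, 11.59, 11.40, 11.62 and 11.50. Asns, the asparagine synthetase, was at background on every naive array and was at least 33-fold higher in effector cells, where it read 11.16, 11.13, 11.43, 11.18 and 11.77. Tubb6, a beta tubulin, rose by 5.03 (SE 0.23), the stem cell factor receptor Kit by 4.77 (SE 0.43) and the stearoyl-CoA desaturase Scd1 by 4.67 (SE 0.23). Dimmer probes for Kit, with means of 6.81 and 6.1 in effector samples, differed by 0.91 and 0.16. Tg, the thyroglobulin gene, was at least 19.8-fold higher and Zbtb32, a zinc finger repressor of lymphocytes, at least 18.3-fold higher, both with no naive array above background. A dimmer second probe for Zbtb32, with a mean of 6.81 in effector samples, differed by 0.83.

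Among the genes that fell most, the haemoglobin genes Hbb-bs, Hbb-bt and Hba-a1 came first and are described with the markers of other cells. Klf2, the Krüppel-like factor of T cell quiescence and egress, read 13.28, 13.08, 13.11, 13.24 and 13.08 on the naive arrays and 8.20, 8.44, 8.00, 8.26 and 6.83 on the effector arrays, a fall of 5.21 (SE 0.32, adjusted p = 2.66e-09). Its naive values were tight and effector sample 17 was the lowest of all. Ifi213, an interferon-inducible gene of the Pyhin family, fell by 5.09 (SE 0.15), from 11.55, 12.03, 11.42, 11.58 and 11.12 to 6.46, 6.58, 6.41, 6.47 and 6.33. Cd163l1, a scavenger receptor, fell by 3.89 (SE 0.61) and Actn2, an actinin, fell by 3.43 (SE 0.23). Ampd1, the muscle-type AMP deaminase, fell by 3.33 (SE 0.12). Dusp10, a phosphatase of stress-activated MAP kinases, fell by 3.30 (SE 0.10), from 10.16, 9.74, 9.99, 10.39 and 10.00 to 6.72, 6.84, 6.87, 6.74 and 6.58. The probe used for Nme7 fell by 3.57, but other probes for this gene differed by -3.12 to 1.87, so no direction is given for Nme7.

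**Figure D1:**
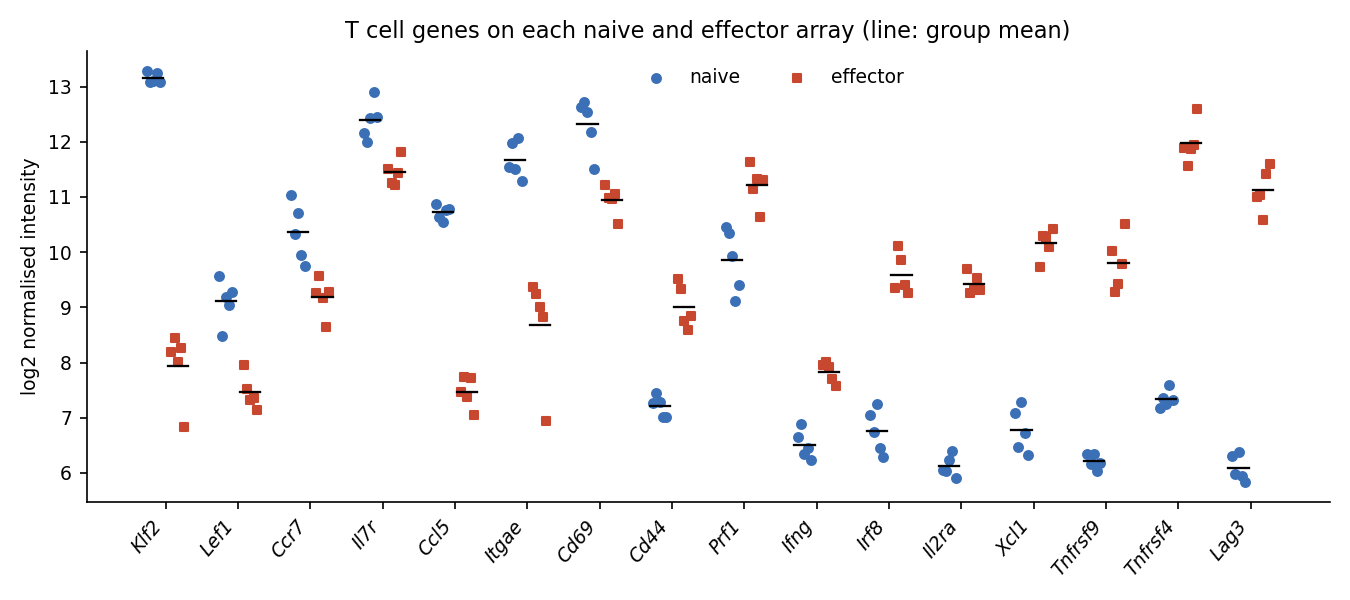
Log2 normalised intensity of 16 T cell genes on each of the 5 naive arrays (circles) and 5 effector arrays (squares), with a line at each group mean. Klf2 falls from a mean of 13.16 to 7.95, and Lag3 rises from 6.09 to 11.13, with no overlap between the groups for any of the genes drawn.

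The labels were checked against genes that define the cells. Cd8b1, the beta chain of CD8, read 13.76, 13.93, 13.61, 13.81 and 14.04 on the naive and 12.99, 12.76, 12.98, 13.06 and 12.85 on the effector arrays, so it was among the brighter genes in both groups. Its main probe fell by 0.90, while its other probes differed by 0.77 and -1.73. The probe for Cd8a, which encodes the alpha chain, was at background on all 10 arrays, at 6.04, 6.15, 5.96, 5.98 and 6.03 in naive and 5.81, 5.93, 6.10, 6.03 and 6.00 in effector samples. A reading at background therefore does not show that a gene was silent. Of 21 measured genes of the T cell receptor complex and its proximal signalling, 3 rose, 5 fell and 13 were not called, a share of 38.1%. The signalling adaptor Lat fell by 1.04 (SE 0.27), the scavenger-type receptor Cd6 by 1.21 (SE 0.12) and the exchange factor Vav1 by 0.81 (SE 0.08). Cd3e, an invariant chain of the receptor, fell by 0.38 (adjusted p = 0.0258), a call lost when any of 4 samples was left out (adjusted p of 0.0548 to 0.0743). Themis, a signalling protein of thymocytes and T cells, rose by 1.19 (SE 0.16). The median of the list was -0.1. With scaling to a common median 1 member was called, and the calls of Cd8b1, Lat, Cd6, Vav1 and Cd3e were lost.

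Genes of the resting state were lower in effector cells. The list of quiescence and homing to lymph nodes had 23 measured genes, of which 17 fell and 0 rose, a share of 73.9% against 26.5% of all genes, and the list had a median of -1.31 against -0.004. Klf3, a second Krüppel-like factor, was above background on all naive arrays and on no effector array, and was at least 4.23-fold lower. Igfbp4, a binding protein of insulin-like growth factors, fell by 2.75 (SE 0.17). Il6ra, the ligand-binding chain of the interleukin 6 receptor, fell by 2.20 (SE 0.16). Lef1, a transcription factor of naive T cells, read 9.56, 8.48, 9.19, 9.04 and 9.28 in naive and 7.96, 7.53, 7.33, 7.37 and 7.15 in effector samples and fell by 1.64 (SE 0.21). Ccr7, the chemokine receptor that guides T cells into lymph nodes, fell by 1.17 (SE 0.28), from 11.04, 10.33, 10.71, 9.95 and 9.76 to 9.26, 9.58, 9.16, 8.64 and 9.28, and its groups were separated by a narrow gap. Il7r, the alpha chain of the interleukin 7 receptor, fell by 0.94 (SE 0.23, adjusted p = 0.00592). Foxo1 differed by -0.40 and was not called (adjusted p = 0.115), with effector sample 17 at the level of the naive arrays. It was called without that sample, at -0.53 (adjusted p = 0.0196), and with the mean of its probes, at -0.68 (adjusted p = 0.000229). It was also called with array weights, with the sample set as a block, within samples 1 to 11 and without the arrays with Y-linked signal, at -0.53 to -0.40 (adjusted p of 0.0129 to 0.05, under 0.05 before rounding), and its second probe differed by -0.97. S1pr1, the egress receptor, was at background on every array of both groups. The call of Il7r was lost after scaling to a common median, when 11 of the 23 members were called.

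Receptors that receive growth signals changed in both directions. The interleukin 2 receptor chain Il2ra, induced on activated T cells, read 6.06, 6.03, 6.23, 6.39 and 5.91 in naive samples, with 1 above background, and 9.70, 9.26, 9.32, 9.53 and 9.31 in effector samples, a rise of 3.30 (SE 0.10, adjusted p = 1.54e-12). Every effector value was far above every naive value. The interleukin 12 receptor chain Il12rb2 rose by 3.15 (SE 0.31). Socs3, a feedback inhibitor of cytokine signalling, fell by 2.32 (SE 0.20). The interferon gamma receptor chains Ifngr1 and Ifngr2 fell by 1.56 (SE 0.20) and 1.62 (SE 0.26), and the interleukin 27 receptor Il27ra by 1.68 (SE 0.13). Of 22 measured cytokine receptor and SOCS genes, 7 rose and 9 fell, a share of 72.7%. Scaling to a common median left 10 called and ended the calls of Ifngr1 and Ifngr2.

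The costimulatory receptors of the tumour necrosis factor family rose most in their list. Tnfrsf4 (OX40) read 7.17, 7.35, 7.25, 7.60 and 7.32 in naive and 11.89, 11.56, 11.87, 11.94 and 12.60 in effector samples, a rise of 4.63 (SE 0.25). Tnfrsf9 (4-1BB) rose by 3.59 (SE 0.27), from 6.34, 6.16, 6.34, 6.04 and 6.18 to 10.01, 9.28, 9.42, 9.79 and 10.51, and Tnfrsf18 (GITR) by 3.15 (SE 0.34). In all of them the groups lay well apart. Slamf7, a receptor of the SLAM family, was at background on the naive arrays and was at least 5.76-fold higher, while its relative Slamf6 fell by 2.34 (SE 0.36). Of 18 measured members, 5 rose and 5 fell, and 6 were called after scaling to a common median.

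Regulators of tolerance and inhibitory receptors moved both ways, with 6 of 23 called higher and 5 lower. Lag3, an inhibitory receptor that binds MHC class II, read 6.31, 5.98, 6.38, 5.94 and 5.84 in naive and 10.99, 11.03, 10.59, 11.42 and 11.59 in effector samples and rose by 5.04 (SE 0.47, adjusted p = 3.25e-07). Ctla4, which competes for B7 ligands, rose by 1.80 (SE 0.49), from 10.89, 10.86, 10.88, 10.27 and 9.66 to 12.46, 12.45, 12.42, 12.01 and 12.21, and was not called without the arrays with Y-linked signal (adjusted p = 0.0539). Cd200, a ligand of an inhibitory myeloid receptor, rose by 1.97 (SE 0.19). The diacylglycerol kinase Dgka, a brake on T cell receptor signalling, fell by 1.97 (SE 0.26) and the orphan nuclear receptor Nr4a2 by 1.46 (SE 0.21). Pdcd1, which encodes PD-1, was above background on 2 arrays of each group and differed by 0.12 (adjusted p = 0.44). The probe used for Cblb, a ubiquitin ligase, rose by 1.34, but another of its probes differed by -0.69.

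Among surface markers, Cd44, the hyaluronan receptor used to mark antigen-experienced cells, rose by 1.80 (SE 0.20), from 7.26, 7.45, 7.28, 7.02 and 7.01 to 9.51, 9.33, 8.75, 8.59 and 8.85. Klrk1, the activating receptor NKG2D, rose by 2.60 (SE 0.16) and the transferrin receptor Tfrc by 1.32 (SE 0.25). Cd69, an early activation marker, was lower in effector cells, at 11.22, 10.98, 10.96, 11.04 and 10.51 against 12.62, 12.72, 12.54, 12.18 and 11.51 in naive samples, a fall of 1.37 (SE 0.20, adjusted p = 3.76e-05). Its naive values were the more widely spread of the groups. Ly6c1, a marker of central memory and effector cells, fell by 2.19 (SE 0.20). In the list of 14 markers, 4 rose and 3 fell. The call of Cd69 was lost after scaling to a common median (adjusted p = 0.0647).

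Genes of killing and cytokine release rose in part. Prf1, the pore-forming perforin, read 10.46, 10.34, 9.94, 9.12 and 9.40 in naive and 11.64, 11.15, 11.32, 10.64 and 11.31 in effector samples, a rise of 1.36 (SE 0.35, adjusted p = 0.00795) that was not called after scaling to a common median (adjusted p = 0.0535). The second Prf1 probe differed by -0.23. Fasl, the death ligand, rose by 1.95 (SE 0.18) and the serpin Serpinb6b, a protease inhibitor, by 2.64 (SE 0.30). Gzmm, a granzyme, was at least 2.05-fold lower, with no effector array above background, a call lost after scaling to a common median. The probe for Gzmb, the main granzyme of effector cells, was at background on all 10 arrays, at 6.12, 5.93, 6.16, 6.00 and 6.00 in effector samples, and its level could not be measured. Of 15 measured cytotoxic genes, 5 rose and 2 fell, a share of 46.7%, and 8 were not called. Scaling to a common median left 3 called.

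Of 20 measured cytokine genes, 6 rose and 0 fell, which is 30% against 26.5% of all genes. Ifng, which encodes interferon gamma, rose by 1.32 (SE 0.19, adjusted p = 3.52e-05), from 6.65, 6.88, 6.34, 6.45 and 6.24 to 7.95, 8.02, 7.92, 7.70 and 7.57, and the groups did not overlap. Tnfsf14 (LIGHT), a ligand of the tumour necrosis factor family, rose by 1.42 (SE 0.09) and lymphotoxin alpha, Lta, by 1.16 (SE 0.18). Among chemokines, a pair moved in opposite directions. Xcl1, which attracts cross-presenting dendritic cells, read 7.08, 6.47, 7.28, 6.73 and 6.33 in naive and 9.73, 10.29, 10.27, 10.10 and 10.43 in effector samples, a rise of 3.38 (SE 0.28, adjusted p = 9.83e-08). Ccl5, a chemokine of memory and effector cells, read 10.87, 10.65, 10.54, 10.77 and 10.78 in naive and 7.46, 7.74, 7.38, 7.73 and 7.05 in effector samples and fell by 3.25 (SE 0.20, adjusted p = 3.32e-09). Ccl3 rose by 0.61 (SE 0.16), a call lost after scaling to a common median, and the other 4 of 7 measured chemokines were not called.

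Among transcription factors of effector and memory fate, 7 of 20 rose and 4 fell. Bhlhe40, a basic helix-loop-helix factor needed for cytokine production, rose most, by 4.13 (SE 0.37), from 8.54, 8.61, 8.91, 8.05 and 6.62 to 12.29, 12.22, 12.47, 11.96 and 12.44. Batf3, an AP-1 partner, was at background in naive samples and at least 6.66-fold higher. Irf8 and Irf4, interferon regulatory factors induced by antigen, rose by 2.84 (SE 0.26) and 1.74 (SE 0.23). Tbx21, the T-bet gene of effector differentiation, rose by 0.76 (SE 0.13, adjusted p = 0.000263), from 6.32, 6.44, 6.40, 6.52 and 6.65 to 7.06, 7.21, 7.41, 7.61 and 6.83, and was not called after scaling to a common median. Its relative Eomes fell by 1.17 (SE 0.22) to 6.12, 6.23, 6.05, 5.99 and 5.91, with 1 effector array above background. Bcl6, a repressor of memory and helper cells, fell by 1.42 (SE 0.26). Prdm1, the Blimp-1 gene of terminal effectors, was above background on 1 of the 10 arrays and was not called. Myc, the growth-promoting transcription factor, rose by 0.81 (SE 0.12) from values above background on 1 naive array.

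Immediate-early genes, which are transcribed within minutes of a stimulus, were lower in effector cells. Of 22 measured immediate-early and heat shock genes, 13 fell and 2 rose, a share of 68.2%, and the list median was -1.09. Fos, an AP-1 subunit, read 12.13, 12.16, 12.04, 11.29 and 11.21 in naive samples and 8.79, 8.46, 8.46, 8.34 and 6.41 in effector samples, a fall of 3.67 (SE 0.58, adjusted p = 0.000115), with effector sample 17 far below the other effector arrays. Dusp1, a MAP kinase phosphatase, fell by 3.30 (SE 0.41), from 12.43, 12.69, 12.50, 12.05 and 11.75 to 9.13, 9.15, 9.17, 9.04 and 8.44. Ppp1r15a, a stress-induced phosphatase subunit, fell by 3.05 (SE 0.42). The members that rose were Ier3, by 3.43 (SE 0.29), and Atf3, by 0.91 (SE 0.20). How long the naive cells were handled before lysis is not given in the sources used here.

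Of 24 chemokine receptors, integrins and adhesion genes, 8 fell and 2 rose, and 4 were called after scaling to a common median. Itgae, the alpha chain of the integrin CD103, read 11.54, 11.98, 11.50, 12.07 and 11.30 in naive and 9.37, 9.24, 9.01, 8.82 and 6.94 in effector samples, a fall of 3.00 (SE 0.47, adjusted p = 9.99e-05). Its effector sample 17 stood well below the other 4. St3gal6, a sialyltransferase of selectin ligands, fell by 1.21 (SE 0.12), a call lost after that scaling. Cxcr3, the receptor for interferon-induced chemokines, differed by 0.05 and was not called (adjusted p = 0.931), with the groups overlapping at 7.14, 7.01, 7.09, 6.86 and 7.22 and 7.13, 7.36, 7.19, 7.27 and 6.62. Of 7 measured GIMAP GTPases, which support lymphocyte survival, 4 fell and 1 rose, with 2 called after that scaling. Gimap6 fell by 2.24 (SE 0.13) and Gimap7 rose by 1.45 (SE 0.27).

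Survival genes of the Bcl2 family moved both ways, with 5 of 17 measured members called higher and 4 lower. Bcl2l2, an anti-apoptotic member, rose by 1.96 (SE 0.17) and Bcl2a1d, induced by antigen receptors, by 1.55 (SE 0.19). Bcl2l11, the pro-apoptotic BIM, fell by 1.37 (SE 0.23), from 9.29, 9.79, 9.66, 10.41 and 10.34 to 8.78, 8.68, 8.19, 8.93 and 8.08, a call lost after scaling to a common median. Bcl2 rose by 0.81 (SE 0.24, adjusted p = 0.0221), a call lost without naive sample 12 or effector sample 10 (adjusted p of 0.0554 to 0.0636). The Bcl2 call was also lost after scaling to a common median (adjusted p = 0.225), and its other probes differed by -0.19 to 0.89. Bcl2a1d has near-identical copies whose transcripts its probe may also read. Scaling to a common median left 4 members called.

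Genes of cell division rose together. Of 34 measured genes of DNA replication and S phase, 32 rose, a share of 97.1% called, and the median was 1.47. Mcm10, which helps load polymerase at origins, rose by 3.35 (SE 0.17, adjusted p = 2.76e-10), from 6.75, 7.06, 6.99, 6.61 and 7.06 to 10.22, 10.16, 10.44, 10.16 and 10.23. Tk1, the thymidine kinase of the salvage pathway, rose by 3.16 (SE 0.27), Uhrf1, which couples replication to DNA methylation, by 2.63 (SE 0.18), and Lig1, the ligase of lagging-strand synthesis, by 2.53 (SE 0.15). The only member called lower was the licensing factor Cdt1, which fell by 0.52 (adjusted p = 0.031), a call lost when any of 6 samples was left out (adjusted p of 0.0506 to 0.0915). Of 32 measured genes of mitosis and the spindle, 25 rose, 0 fell and 7 were not called, and the median was 1.9. Aurkb, the chromosome passenger kinase, read 6.45, 6.75, 6.69, 6.73 and 6.81 in naive and 10.62, 10.52, 10.37, 10.77 and 10.50 in effector samples, a rise of 3.87 (SE 0.31, adjusted p = 6.79e-08). Nusap1, a spindle protein, rose by 3.60 (SE 0.29), Prc1, which bundles the central spindle, by 3.50 (SE 0.29), and Top2a, the topoisomerase that untangles chromosomes, by 3.31 (SE 0.39). Every effector array exceeded every naive array in the median of each list, at 1.41 to 1.57 for replication and 1.86 to 1.97 for mitosis above the naive mean.

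Regulators of entry into the cycle changed as well. Of 15 measured D cyclins, kinases and inhibitors, 8 rose and 2 fell, and 6 were called after scaling to a common median. Cdkn1a, the p21 inhibitor, rose most, by 2.72 (SE 0.34), and the kinases Cdk4 and Cdk2 rose by 1.52 (SE 0.42) and 1.18 (SE 0.11). Birc5, the survivin of the passenger complex, rose by 3.00 (SE 0.26). Of 11 tubulins, which form the spindle, 5 rose and 1 fell. Besides Tubb6, the gamma tubulin Tubg1 of the spindle poles rose by 1.31 (SE 0.10), and Tubb2b fell by 1.19 (SE 0.16).

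E2F factors switch on replication genes by binding a motif in their promoters. In the RefSeq promoters of GRCm38.p6, taken from 250 bases before to 50 bases after a gene's start, the letters TTTGGCGC or TTTCCCGC on either strand occurred in 9 of the 29 replication genes with a promoter (31.0%), in 0 of 26 mitosis genes and in 2.69% of the 13186 tested genes with a promoter. The letters CCAAT occurred in 73.1% of the mitosis promoters, 55.2% of the replication promoters and 42.3% of those of tested genes. These are descriptions of letters, and no binding was measured. The promoter of Mcm6, a subunit of the replicative helicase that rose by 1.53 (SE 0.18), lies at chr1:128359656-128359955 on the minus strand and is shown because it holds 2 matches, in capitals.
Mcm6 promoter: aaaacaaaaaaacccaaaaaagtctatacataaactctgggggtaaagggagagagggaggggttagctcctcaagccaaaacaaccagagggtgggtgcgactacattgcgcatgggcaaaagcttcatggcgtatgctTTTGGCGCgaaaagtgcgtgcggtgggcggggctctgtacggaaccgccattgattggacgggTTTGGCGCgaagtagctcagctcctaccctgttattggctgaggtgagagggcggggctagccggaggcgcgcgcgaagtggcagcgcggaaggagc

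Genes of glycolysis rose together. Of 19 measured genes of glycolysis and glucose uptake, 17 rose and 0 fell, a share of 89.5%, and the median was 2.22, against -0.004 for all genes. The glucose transporter Slc2a1 rose by 1.91 (SE 0.14). Among the enzymes, phosphofructokinase Pfkp rose by 3.47 (SE 0.51) and aldolase Aldoa by 3.50 (SE 0.30). Tpi1, the triose phosphate isomerase, read 9.33, 9.32, 9.40, 9.05 and 8.96 in naive and 13.75, 13.54, 13.63, 13.64 and 13.74 in effector samples, a rise of 4.45 (SE 0.23), and other probes gave 4.41 and, near background, 0.24. Ldha, which makes lactate, read 11.44, 11.20, 11.20, 11.33 and 11.00 in naive and 13.52, 13.15, 13.12, 13.36 and 13.57 in effector samples and rose by 2.11 (SE 0.16, adjusted p = 2.44e-08). The members not called were Pfkfb3 and the lactate exporter Slc16a1, each above background on 1 array at most. The probe chosen for Aldoc gave the rise stated above, while its second probe gave 0.33 and was above background on 2 effector arrays. Of 6 pentose phosphate genes, 3 rose and 0 fell, led by the transketolase Tkt with 1.05 (SE 0.16). Their calls were lost after scaling to a common median, under which all 17 glycolysis calls remained.

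**Figure D2:**
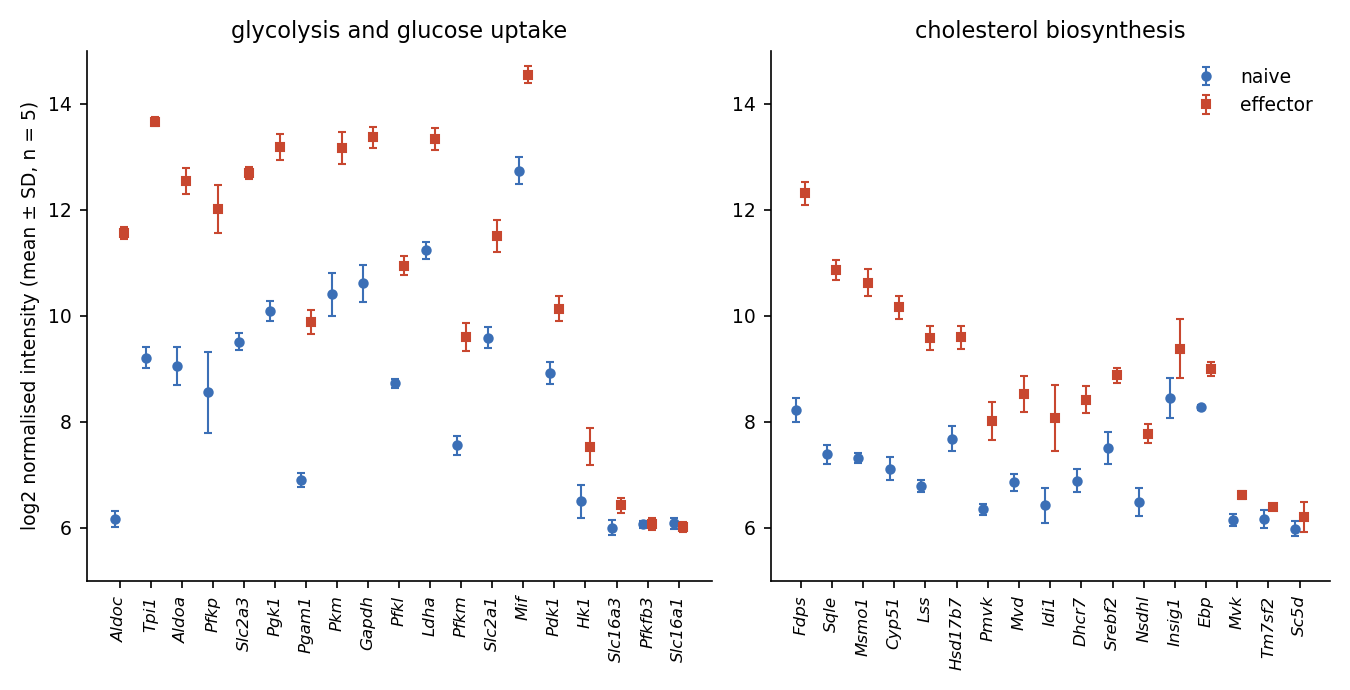
Log2 normalised intensity of the measured genes of glycolysis (left) and cholesterol biosynthesis (right), as the mean and SD of the 5 naive arrays (circles) and 5 effector arrays (squares), ordered by difference. Aldoc, Tpi1 and Aldoa in glycolysis and Fdps, Sqle and Msmo1 in cholesterol synthesis show the widest gaps, and the effector mean exceeds the naive mean for all but Slc16a1.

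Hypoxia-inducible factors bind the core ACGTG in many promoters of glycolysis genes. The core, on either strand and including matches inside the E box CACGTG, occurred in 14 of 18 glycolysis promoters (77.8%) and in 25.7% of the 13186 tested genes with a promoter. In the list, 4 promoters (22.2%) held the E box itself, against 10.1%. The transcript of the factor Hif1a rose by 1.24 (SE 0.36, adjusted p = 0.0188), a call lost without naive sample 2 or effector sample 17 (adjusted p of 0.054 to 0.0552). The promoters of Ldha (chr7:46845554-46845853, plus strand) and Aldoc (chr11:78322823-78323122, plus strand) are shown because they carry the core, in capitals. RefSeq lists a second start for each gene, and the promoters there, chr7:46846832-46847131 for Ldha and chr11:78323948-78324247 for Aldoc, hold 0 matches. In Ldha each CACGTG holds a match on both strands, which gives 5 matches.
Ldha promoter: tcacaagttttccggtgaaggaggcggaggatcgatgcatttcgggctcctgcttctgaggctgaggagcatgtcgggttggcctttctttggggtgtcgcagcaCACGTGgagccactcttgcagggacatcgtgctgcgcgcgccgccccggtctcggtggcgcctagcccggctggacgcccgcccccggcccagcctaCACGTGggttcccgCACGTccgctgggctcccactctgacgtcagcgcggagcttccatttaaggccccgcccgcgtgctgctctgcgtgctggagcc
Aldoc promoter: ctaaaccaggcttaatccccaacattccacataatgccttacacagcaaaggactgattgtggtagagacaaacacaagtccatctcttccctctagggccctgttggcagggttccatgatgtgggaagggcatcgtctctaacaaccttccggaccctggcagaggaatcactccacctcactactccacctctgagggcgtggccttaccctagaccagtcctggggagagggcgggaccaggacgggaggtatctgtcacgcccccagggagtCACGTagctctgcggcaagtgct

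Genes of mitochondrial pathways rose in part. For oxidative phosphorylation 17 of 27 measured genes rose and 1 fell, with a median of 0.6. Cox5a, a cytochrome oxidase subunit, rose by 1.29 (SE 0.09) and Ndufab1, the acyl carrier protein of complex I, by 1.24 (SE 0.10), while Uqcrq of complex III fell by 1.26 (SE 0.15). Of 18 genes of the tricarboxylic acid cycle, 8 rose and 1 fell, with Idh1 at 1.59 (SE 0.23) and fumarase Fh1 at 1.39 (SE 0.10). Of 18 genes of fatty acid oxidation, 9 rose and 1 fell, with the carnitine palmitoyltransferase Cpt2 at 1.79 (SE 0.17) and the long-chain dehydrogenase Acadl at 1.69 (SE 0.19). Hadha, of the trifunctional protein, fell by 0.96 (SE 0.17). After scaling to a common median, 6 oxidative phosphorylation genes and 4 cycle genes were called.

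Genes of sterol synthesis rose together. Of 17 measured genes of cholesterol biosynthesis, 16 rose and 0 fell, a share of 94.1%, and the median was 1.64. Fdps, the farnesyl diphosphate synthase, read 8.26, 8.02, 8.08, 8.60 and 8.16 in naive and 12.30, 12.04, 12.17, 12.50 and 12.56 in effector samples, a rise of 4.09 (SE 0.23, adjusted p = 9.97e-10). Its second probe, dimmer by far, gave 0.05. Sqle, the squalene epoxidase, rose by 3.49 (SE 0.18), from 7.28, 7.33, 7.43, 7.67 and 7.23 to 10.62, 10.85, 10.89, 11.14 and 10.85. Msmo1 and Cyp51, which remove methyl groups from lanosterol and its products, rose by 3.31 (SE 0.18) and 3.04 (SE 0.23). Srebf2, the transcription factor that drives the pathway, rose by 1.37 (SE 0.18). Of 14 genes of fatty acid synthesis, 8 rose and 1 fell. The desaturases led them, with Scd1 at 10.97, 11.06, 11.01, 10.90 and 11.09 in effector against 6.47, 6.60, 6.24, 6.38 and 6.01 in naive samples, Scd2 at a rise of 2.74 (SE 0.13) and Fads1 at 2.26 (SE 0.15). Slc25a1, which exports citrate from mitochondria, rose by 1.83 (SE 0.19). Fasn, the fatty acid synthase, was above background on 2 effector and 3 naive arrays and was not called.

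All 15 cholesterol genes with a promoter held the letters CCAAT, against 42.3% of the tested genes with a promoter, while the sterol regulatory element letters TCACNCCAC were found in 0 of the 15 and in 1.42% of tested genes. Only these exact letters within the promoter windows were counted. A variant of the element or a site elsewhere would be missed, so the count does not show that the genes lack such elements. The promoter of Msmo1 (chr8:64733529-64733828, minus strand) is shown with its 3 CCAAT matches in capitals.
Msmo1 promoter: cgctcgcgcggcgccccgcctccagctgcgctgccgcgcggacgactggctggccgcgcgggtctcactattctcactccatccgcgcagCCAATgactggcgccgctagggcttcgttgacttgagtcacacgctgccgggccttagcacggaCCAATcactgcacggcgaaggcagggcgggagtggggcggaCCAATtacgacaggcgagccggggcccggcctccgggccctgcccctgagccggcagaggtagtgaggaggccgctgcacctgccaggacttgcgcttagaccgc

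The lists of amino acid metabolism had more members called higher than lower. Of 10 genes of serine, glycine and one-carbon metabolism, 7 rose and 0 fell. Psat1, the phosphoserine aminotransferase, rose by 2.87 (SE 0.16), and Mthfd2, the mitochondrial folate enzyme, read 8.68, 8.66, 8.39, 8.52 and 8.01 in naive and 11.04, 10.68, 10.82, 10.96 and 11.46 in effector samples, a rise of 2.54 (SE 0.17). The serine hydroxymethyltransferase Shmt1 rose by 1.33 (SE 0.22). Of 15 genes of asparagine and proline synthesis and Atf4 targets, 9 rose and 1 fell. Ddit4, an inhibitor of mTORC1, rose by 4.35 (SE 0.35), Vldlr was at least 6.04-fold higher and Chac1, which degrades glutathione, at least 4.17-fold higher. Neither of the last pair was above background on any naive array. Atf4 itself differed by -0.26 and was not called. Among 11 amino acid transporters, 3 rose and 2 fell, led by the arginine carrier Slc7a3 with 2.02 (SE 0.13) and the glutamine carrier Slc38a2, which fell by 1.63 (SE 0.14). After scaling to a common median the call of Slc38a2 was lost and 3 transporters were called. Of 18 aminoacyl-tRNA synthetases, which charge tRNAs, 10 rose and 2 fell, with 6 called after that scaling. Aars rose by 1.44 (SE 0.12) and Iars by 1.39 (SE 0.17).

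Genes of growth and protein synthesis moved both ways. Of 23 genes of the Myc network and ribosome biogenesis, 4 rose and 7 fell, with a median of -0.3, and 4 were called after scaling to a common median. Mxd1, an antagonist of Myc, fell by 1.27 (SE 0.15), and Mxi1, of the same family, rose by 1.89 (SE 0.27). Rrp12, which takes part in ribosome maturation, fell by 1.04 (SE 0.14), a call lost after that scaling. Of 17 cytosolic ribosomal proteins, 4 rose and 1 fell, a share of 29.4% near that of all genes. Without naive sample 2 or effector sample 17, or within samples 12 to 17, 3 of them were called. Among 15 translation factors, 2 rose and 3 fell, and 8 were called within samples 12 to 17. In the whole comparison the initiation inhibitor Eif4ebp1 rose by 3.43 (SE 0.16). The probe used for the scaffold factor Eif4g2 fell by 1.81 (SE 0.21), while its other probes differed by -0.72 and -0.25. Of 15 genes of purine and pyrimidine synthesis, 4 rose, or 26.7%, and 2 did so without naive sample 12 or 13 or without effector sample 10, 16 or 17, while 7 were called within samples 12 to 17. None of 5 polyamine genes was called by limma, and 0 had an unadjusted p under 0.05, and 1 was called within samples 1 to 11. Of 20 proteasome subunits, 10 rose and 1 fell, led by the immunoproteasome subunit Psmb9 with 1.40 (SE 0.19), and 2 were called after scaling to a common median. Of 21 chaperones of the endoplasmic reticulum, 4 rose and 4 fell, with 5 called after scaling to a common median. Dnajb9 fell by 2.90 (SE 0.28) and the disulphide isomerase P4hb rose by 1.33 (SE 0.12).

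**Figure D3:**
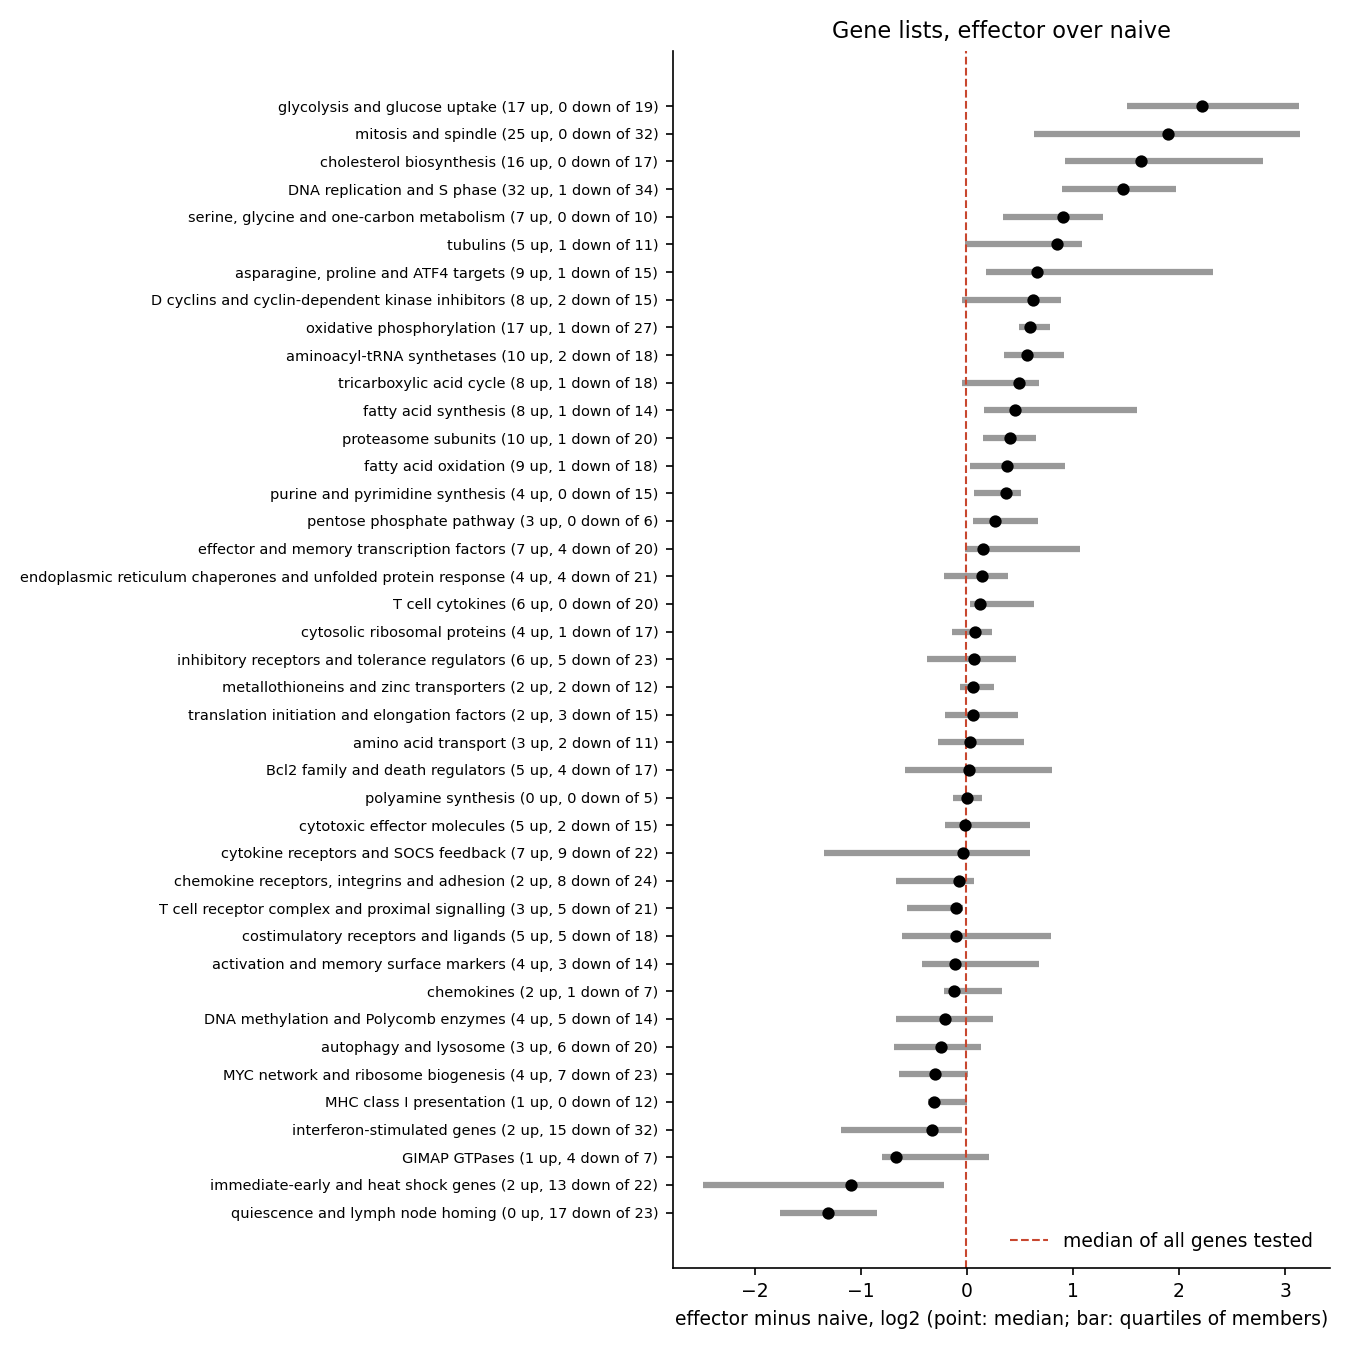
Median (points) and quartiles (bars) of the effector minus naive log2 difference over the measured members of each gene list, with members called higher and lower beside the name and a dashed line at the median of all genes tested. Glycolysis (2.22), mitosis (1.9), cholesterol (1.64) and replication (1.47) have the highest medians and quiescence (-1.31) the lowest.

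Of 32 measured interferon-stimulated genes, 15 fell and 2 rose, a share of 53.1%. Ifit3, an antiviral protein, read 9.64, 10.19, 9.62, 10.50 and 7.29 in naive samples and was at background on every effector array, at least 9.12-fold lower. Naive sample 13 was the lowest of the naive arrays and still above the effector arrays. Oasl2 was at least 5.36-fold lower and Rsad2 at least 3.99-fold lower, and Irf7, the factor that amplifies the response, fell by 2.12 (SE 0.22). The median of the list, set against the naive mean, was -0.38 on naive sample 13 and -0.46 to -0.35 on the effector arrays, so this naive sample reached their range. Scaling to a common median left 11 members called.

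Among enzymes of chromatin, Ezh2, which methylates histone H3 for Polycomb silencing, rose by 2.49 (SE 0.22), and the maintenance methyltransferase Dnmt1 by 1.15 (SE 0.18), a call lost after scaling to a common median (adjusted p = 0.0516). Kdm6b, which removes the Polycomb mark, fell by 1.71 (SE 0.17), although a second probe differed by 0.05. In the list of 14, 4 rose and 5 fell. Of 20 genes of autophagy and the lysosome, 3 rose and 6 fell. With scaling to a common median, 4 of the chromatin list and 2 of the autophagy list were called. Of 12 genes of MHC class I presentation, 1 rose, the peptide transporter Tap1 at 1.07 (SE 0.30), and 2 were called without naive sample 13 or without effector sample 6, 8 or 10. Within either sample set 4 were called. Beside Mt1, the metallothionein Mt2 rose by 0.81 (SE 0.12), and of 12 metallothioneins and zinc transporters 2 rose and 2 fell.

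**Figure D4:**
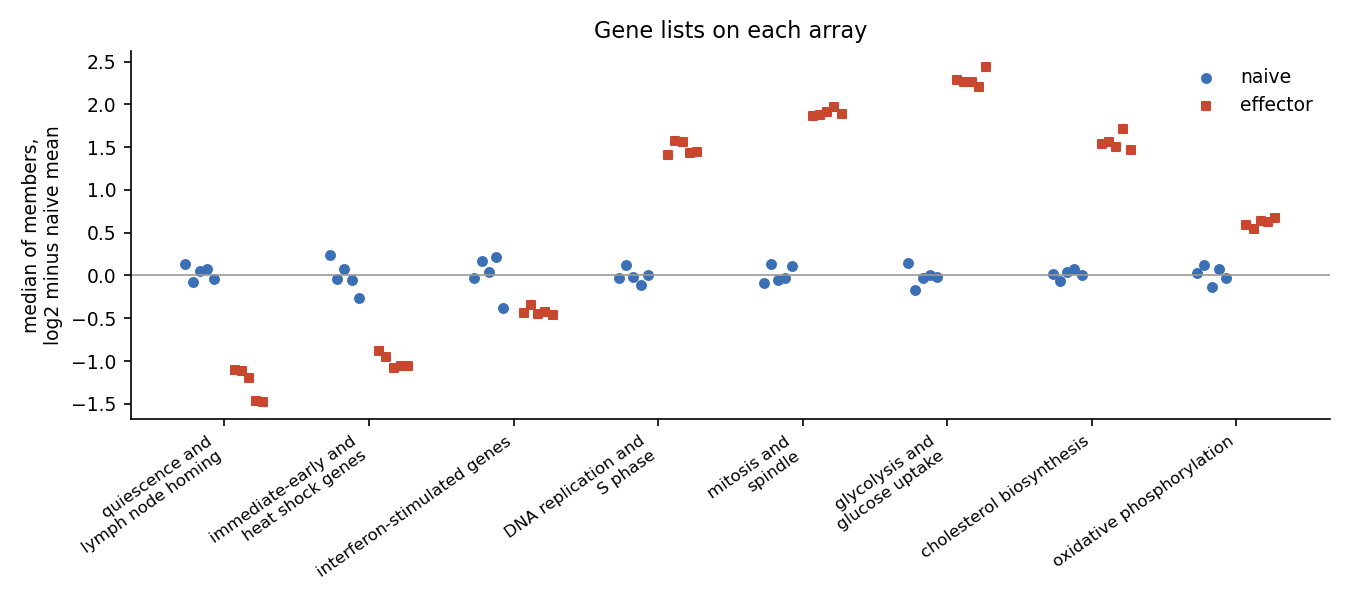
Median over the members of 8 gene lists on each of the 5 naive arrays (circles) and 5 effector arrays (squares), as the log2 difference from the naive mean. The groups are separated on every array for all lists but the interferon-stimulated genes, where naive sample 13 lies at -0.38 among the effector arrays.

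Summed markers of erythroid cells, macrophages and neutrophils were higher on every naive array than on any effector array. The beta-globin gene Hbb-bs read 12.09, 11.80, 12.20, 10.99 and 13.53 on the naive arrays and 6.12, 6.07, 6.13, 6.03 and 5.99 on the effector arrays, a fall of 6.05 (SE 0.32), with 1 effector array above background. Hbb-bt and Hba-a1 were at least 47.9-fold and 35.7-fold lower. The summed level of the 12 erythroid and platelet markers was 5820 to 31000 on the naive and 759 to 800 on the effector arrays, and 9 of the 12 were at background on all effector arrays. Of these markers 5 fell and 0 rose. Hbb-bs and Hbb-bt are close copies whose probes may read each other's transcripts. For the 13 macrophage and monocyte markers the summed level was 1070 to 2700 in naive and 816 to 852 in effector samples, with 11 at background on all effector arrays, Csf1r, Lyz2, Adgre1 and Cd14 among them. Of these, 2 fell, Mpeg1 and Csf1r, and the number called was 0 without naive sample 1, 1 without naive sample 11, 4 without naive sample 2 or 12 and 6 within samples 1 to 11. For the 10 neutrophil markers the summed level was 701 to 1930 against 621 to 658, and S100a8, S100a9, Ltf and Retnlg fell, while none of the 10 was called within samples 12 to 17. The calls of Mpeg1 (adjusted p of 0.0593 to 0.0614 without naive sample 1 or 11), Csf1r (adjusted p = 0.0521) and Ltf (adjusted p = 0.0514) were lost without naive sample 1. Globin genes are made by red cells and their precursors. The part of these cells in the lower levels of interferon-stimulated and immediate-early genes was not tested.

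Dendritic cells were the activating partner of the effector cells. The summed level of 16 dendritic cell markers was 3560 to 5000 in effector and 2240 to 6080 in naive samples, so the ranges overlapped. Itgax, Flt3, Clec9a, Cd209a and Ciita were at background on all effector arrays, while Batf3, Cd83, Cd86, Ccr7, H2-Ab1, H2-Eb1 and Cd74, 7 of the 16, were above background on all of them. Of the 16, 3 rose and 3 fell, and the part of dendritic cells in these levels was not tested. Batf3, described above, and Cd83 with 1.47 (SE 0.20) rose, and activated T cells express them too. The MHC class II genes disagreed: H2-Aa fell by 2.46 (SE 0.62) and H2-Ab1 rose by 2.14 (SE 0.66, adjusted p = 0.0249), a call lost when any of 5 samples was left out (adjusted p of 0.05 to 0.0723). None of 11 B cell markers and none of 8 NK cell markers was called by limma, while 2 and 1 had an unadjusted p under 0.05. With array weights 2 B cell and 1 NK cell markers were called, and 1 B cell marker was called without naive sample 13 and within either sample set, as were 2 NK cell markers within samples 1 to 11. Of 5 genes listed as CD4 T cell markers, Trat1 fell by 2.17 (SE 0.14) and Foxp3 by 0.63 (SE 0.12). The call of Foxp3 was lost after scaling to a common median. Its other probes were at background on every array of both groups and differed by -0.09 to 0. Cd4 itself differed by 0.07 and was above background on 1 effector array.

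**Figure D5:**
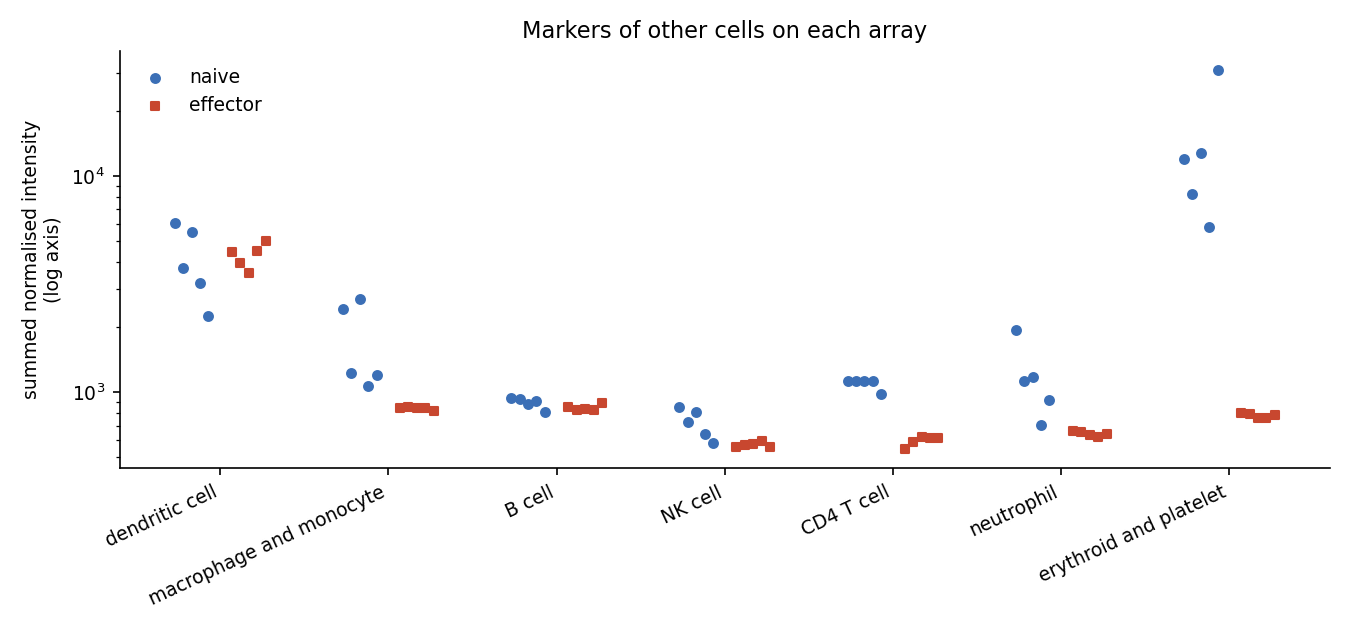
Summed normalised intensity, on a log axis, of the measured markers of 7 other cell types on each of the 5 naive arrays (circles) and 5 effector arrays (squares). Erythroid and platelet markers reach 5820 to 31000 on naive arrays and 759 to 800 on effector arrays, while dendritic cell markers overlap between the groups.

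The other groups give the effector levels a scale. In the same model, 17.7% of genes differed between effector and LSEC-primed cells and 26.1% between effector and memory cells. The memory arrays were less alike than those of the other groups, with correlations of 0.8627 to 0.9535. Memory sample 5 was the dimmest array, with a mean intensity of 96.7 and 16.5% of its probes above background. Lag3 averaged 10.24 ± 0.64 (SD, n = 4) in LSEC-primed and 7.02 ± 1.84 (SD, n = 3) in memory samples, and the effector level of 11.13 ± 0.39 (SD, n = 5) was higher than memory by 4.11 (adjusted p = 2.07e-05) and differed from LSEC-primed by 0.89 (adjusted p = 0.335), which was not called. Kit had the same order, at 10.57 ± 0.82 in LSEC-primed and 6.98 ± 1.46 in memory samples, with a difference of 0.63 from LSEC-primed cells that was not called (adjusted p = 0.513). Tnfrsf4 was higher in effector cells than in both, by 4.09 over LSEC-primed (adjusted p = 1.86e-08) and 3.69 over memory (adjusted p = 5.59e-08). Mt1 was likewise higher by 4.42 and 4.05, and Scd1 by 4.40 and 3.74. For Klf2 the effector level differed by -2.44 from LSEC-primed cells (adjusted p = 6.46e-05) and by -4.64 from memory cells (adjusted p = 6.67e-08), so it was the lower of each pair.

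Some genes of effector function stood higher in memory than in effector samples. Summed NK cell markers were also higher there, at 1720 to 3840 on the memory arrays against 555 to 596 on the effector arrays. The part of NK cells in the differences from memory samples was not tested. Ifng averaged 10.15 ± 0.56 (SD, n = 3) in memory against 7.83 ± 0.19 (SD, n = 5) in effector samples, an effector minus memory difference of -2.32 (adjusted p = 4.22e-07). Tbx21 differed by -2.90 (adjusted p = 6.24e-10) in the same direction and Cxcr3 by -3.10 (adjusted p = 1.49e-08). Klrg1, a marker of terminal effectors that was at background on the naive and effector arrays, averaged 10.62 ± 0.64 in memory samples. Ampd1 and Dusp10 were low in the other groups too: Ampd1 averaged 6.31 ± 0.16 in LSEC-primed and 6.27 ± 0.11 in memory samples and Dusp10 6.62 ± 0.14 and 6.14 ± 0.13. Ifi213, by contrast, averaged 10.85 ± 0.33 and 11.62 ± 0.10 and was lower in effector cells than in either (adjusted p = 3.19e-11 and 4.08e-12). Genes of the S phase list had a median effector difference of 1 from LSEC-primed and 1.64 from memory cells, the mitosis list 1.47 and 2.77, the glycolysis list 1.7 and 2.19 and the cholesterol list 1.48 and 1.83.

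Effector arrays had a median SD of 0.132 over the 16462 named genes tested, against 0.144 for naive arrays. Of these genes, 8234 were above background on at least 3 effector arrays, and the offset makes differences of dim genes smaller. An SD above 1 was found for 6 genes among effector arrays and 22 among naive arrays. The gene with the largest SD among effector arrays was Xist, at 12.03, 11.31, 10.71, 10.38 and 6.01 in effector samples and 11.38, 11.49, 10.94, 10.96 and 5.85 in naive samples. The samples of a group therefore did not all come from the same animal. The same samples were high for Cap1, an actin-binding protein, at 8.33, 8.31, 7.69, 7.87 and 11.18 in effector and 8.17, 8.27, 7.93, 8.90 and 11.36 in naive samples. Ddx3x read 9.53, 9.93, 9.49, 7.96 and 7.71 in effector and 11.14, 11.26, 11.19, 9.54 and 9.78 in naive samples, and Ptprc 9.76, 9.78, 9.82, 8.36 and 7.93 and 10.35, 10.62, 11.14, 9.48 and 9.15, with samples 12, 13, 16 and 17 the lowest of each group. Stmn1, a tubulin-binding protein, showed the same split, at 9.00, 10.11, 9.58, 8.32 and 7.87 and 7.56, 7.73, 7.45, 6.65 and 6.87, although it rose by 1.72 (SE 0.35) in effector cells. Ptprc, the CD45 gene, was not called in the whole comparison and fell by 1.02 with the set as a block (adjusted p = 0.000176). Of the genes described, Tbx21, Bcl2, Cd3e, Csf1r, S100a8, S100a9, Ltf and Retnlg were not called within samples 12 to 17 with the same probes (adjusted p of 0.0528 to 0.357), and Cd3e and Cdt1 not within samples 1 to 11 (adjusted p of 0.0999 and 0.201). All of them kept their sign.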

How the data were processed

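The authors deposited a non-normalised table with the intensity of 45281 probes on each array, and a processed table of intensity values that, by comparison with the first, was quantile normalised on the linear scale. For image software, background subtraction and bead summary the sources used here give nothing. RNA was extracted with QIAzol and a miRNeasy kit and labelled as biotinylated cRNA, per the labels' protocols. The deposited non-normalised table held 3 columns with no matching sample, which were not used. Table headers name no slide or scan.

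Intensities of the 17 labelled arrays were corrected with normexp (offset 50), quantile normalised and taken to log2 with limma 3.58.1 in R 4.3.3. Probes above the array's median on at least 3 arrays were kept (35237), and each gene symbol was represented by its brightest probe on average, which left 23699 features, 16462 with a symbol. Symbols came from the platform annotation, which gave 34885 probes 1 symbol, 18 several and 10378 none, and features without a symbol kept their probe ID. A model with 4 group means was fitted with lmFit and eBayes, which left 13 residual degrees of freedom. The contrast was effector minus naive, with Benjamini-Hochberg adjustment of the p-values across every feature. Fold changes of log2 values carry the offset. A probe counted as above background on an array when its uncorrected intensity, before log2, exceeded the mode of that array's intensities by 3 SD of the lower side.

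The named genes were the 12 highest and 12 lowest called genes without overlap, 42 landmark genes (34 measured), up to 4 called members of each of 49 gene lists in the main direction and 2 in the other, and the 10 genes that varied most over effector arrays. Mcm6, Hif1a, Srebf2, Atf4 and Cd4, and members given only as not called, at background or in a count, were named after their values were seen. The members and lists were chosen with earlier results of these data known. Promoters were RefSeq sequences of GRCm38.p6, matched by symbol. The fit was tested on simulated data. Alternatives covered background correction, normalisation, the authors' deposited intensity values, filters, probes, the spread estimate, a fold threshold, array weights, the arrays in the fit and leaving out each array. Those on the sample sets and on the arrays with Y-linked signal were added after seeing the data.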

Additional observations from a re-analysis of the deposited data

Results flagged for a closer look

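For 171 genes named in the text, the highest or lowest of the 5 arrays of a group was set against the other 4. In 28 of 342 cases (8.2%) it stood apart by more than 0.71 of the range. Chance gives about 5% for genes not chosen by their spread. Some of the genes, Xist, Cap1, Itgae and Fos among them, were named for a high SD over effector arrays. Genes also share arrays, so the 8.2% cannot be compared with chance. Effector sample 17 did so for Cap1 at 11.18 (others 7.69 to 8.33), Dusp1 at 8.44 (others 9.04 to 9.17), Fos at 6.41 (others 8.34 to 8.80), Hadha at 6.60 (others 6.84 to 6.93), Itgae at 6.94 (others 8.82 to 9.37), Klf2 at 6.83 (others 8.00 to 8.44), Slc7a3 at 8.59 (others 7.93 to 8.05) and Xist at 6.01 (others 10.38 to 12.02). In naive sample 2 the values were Cdk2 at 9.90 (others 9.48 to 9.51), Eif4g2 at 9.24 (others 10.04 to 10.18), Pfkp at 7.19 (others 8.80 to 9.04) and Tk1 at 6.05 (others 6.60 to 6.68). On naive sample 13 they were Cap1 at 11.36 (others 7.93 to 8.90), Ifit3 at 7.29 (others 9.62 to 10.50), Trat1 at 8.52 (others 8.86 to 8.98) and Xist at 5.85 (others 10.94 to 11.49). Effector sample 10 did so for Il27ra at 10.04 (others 9.57 to 9.69), Mcm10 at 10.44 (others 10.16 to 10.23) and Ppp1r15a at 7.38 (others 7.91 to 8.08). In naive sample 11 the values were Ifngr2 at 8.34 (others 8.74 to 8.90), P4hb at 10.36 (others 10.63 to 10.68) and Vldlr at 6.14 (others 5.79 to 5.89). On effector sample 8 they were Ltf at 6.23 (others 5.96 to 6.03) and Nr4a2 at 7.13 (others 6.74 to 6.84). Effector sample 6 did so for Klrg1 at 6.14 (others 5.96 to 6.01) and Themis at 10.11 (others 9.43 to 9.57). In naive sample 12 it was Bcl2l2 at 6.20 (others 6.51 to 6.56). In effector sample 16 it was Eif4g2 at 8.27 (others 8.02 to 8.09). Effector sample 17 and naive sample 13 are the arrays with Y-linked signal and no Xist, and the part of this difference in the other values was not tested.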

How the results depend on the processing

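No paired analysis was possible because the labels do not say which samples share an animal or culture. After scaling to a common median, 2506 genes were called, 1913 higher and 593 lower, and with a limma test beyond 1.5-fold 1333 were called, 783 higher and 550 lower. Leaving out each effector or naive array gave 4024 to 4143 called genes, 2168 to 2262 higher, 1851 to 1937 lower and 1451 to 1563 at least 2-fold, and without memory sample 5 there were 4702, 2512, 2190 and 1652. The other alternatives called 3901 to 5197 genes, and 1055 to 2089 at least 2-fold. Of 236 named genes that were called, 147 stayed called under every alternative that tested them, leaving aside the test beyond 1.5-fold. Another 89 were lost in some, and none changed sign with a call. A gene filtered out under an alternative did not count as lost there. The probe of a gene was chosen anew under each alternative, except in the sample sets, where the text gives values with the probes kept; choosing anew there gave 4356 called genes within samples 1 to 11 and 4288 within samples 12 to 17. A block on slide was not run because the headers name no slide. Medians near 0 changed sign with the setting and no direction was drawn from them: after scaling to a common median cytotoxic genes went from -0.02 to 0.08, chemokines from -0.12 to 0.02, cytokine receptors from -0.04 to 0.07 and activation markers from -0.11 to 0.02. Except where a value shows it, the cause of these changes was not tested. Genes near background, such as Gzmb, Cd8a and S1pr1, could not be compared at this signal.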
